A study of Mus musculus with 2 samples.

Results

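MHC class II-high cells were 552 of the 14849 brain cells of this series, 184 of 7032 in *Disc1* WT/WT and 368 of 7817 in *Disc1* LI/LI. They were chosen by measured values. A cell was kept when *H2-Aa*, *H2-Ab1*, *H2-Eb1* and *Cd74* together made up at least 1% of its unique molecular identifiers (UMIs, tags that count each captured transcript once). It also had to hold less than 0.5% of UMIs from 6 microglia genes (*P2ry12*, *Gpr34*, *Tmem119*, *Siglech*, *Fcrls* and *Olfml3*), less than 3% from the neutrophil genes *S100a8* and *S100a9*, and fewer than 3 of the border macrophage genes *Mrc1*, *Pf4*, *Ms4a7*, *Cbr2*, *Cd163* and *Folr2*. All levels of these genes are therefore given as a description.

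Both groups were male littermates aged 23 weeks. *Disc1* LI/LI mice were homozygous for a locus impairment (LI) allele, and *Disc1* WT/WT mice were wild type at the locus, and the groups are called LI/LI and WT/WT. Brains of 6 mice were pooled per genotype before dissociation with actinomycin D, which blocks new transcription (Act-Seq), and CD45low CD11b+ cells were sorted for droplet single-cell RNA sequencing. With 1 library per genotype, no test was possible, genotype cannot be told apart from library, and every interval below is a 95% exact interval for counting error only. The WT/WT library held 33601957 UMIs over 7038 barcodes and the LI/LI library 47731571 UMIs over 7834 barcodes. The class II-high cells accounted for 999260 and 2308801 of these UMIs, with a median of 4079 UMIs per cell in WT/WT and 5991 in LI/LI. The libraries shared 12 barcodes, none of them a class II-high cell in either library.

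The targeted gene was read first. *Disc1* (chromosome 8, 125054195 to 125261858, plus strand, mm10) had 24 UMIs in 23 of the 184 WT/WT class II-high cells, or 24.0 counts scaled to 1000000 UMIs (CPM, interval 15.4 to 35.7). It had 0 UMIs in the 368 LI/LI class II-high cells, where 3 counts would be 1.30 CPM. Among all other cells *Disc1* stood at 19.0 CPM in WT/WT and 0.485 CPM in LI/LI, so both libraries went with their labels.

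MHC class II molecules are α/β heterodimers that display peptides from endocytosed protein to CD4 T cells. *H2-Aa* and *H2-Ab1* encode the chains of I-A, *H2-Eb1* the β chain of I-E, and *Cd74* the invariant chain that fills the groove until proteases such as cathepsin S cut it away. H2-DM then exchanges the last invariant chain fragment for peptide, and H2-O restrains H2-DM. Transcription is switched on by the coactivator CIITA, which has no DNA contact of its own and sits on factors bound at the X and Y boxes of class II promoters. Dendritic cells, B cells and activated macrophages use this pathway, and in the healthy brain such cells are mainly found in the meninges, choroid plexus and perivascular spaces.

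Promoter windows were searched for the Y and X box letters. Of 17 genes for class II chains, loading and regulation, 13 matched a RefSeq window (GRCm38.p6, from 250 bases before to 50 bases after the gene start), and 8 of these held the Y box letters TGATTGG on either strand. An X box-like run, AAC followed by any 3 bases and TGATG, lay in the same window in 4 genes, *H2-Eb1*, *H2-DMb1*, *H2-DMb2* and *H2-Ob*. The windows of *H2-DMa*, *Rfxank*, *Ifi30*, *Ctss* and *Lgmn* held neither run. Across all 32851 windows, the Y letters occurred in 7.82%, the X letters in 0.615% and both in 0.0517%, and the motifs do not overlap in the genes shown. A match describes letters only. Capitals mark the motifs in the stretches below, printed 5′ to 3′ on the gene's strand. They were picked to compare the classical chains *H2-Aa* (minus strand, chr17:34287859-34287926) and *H2-Eb1* (plus, chr17:34305770-34305820) with the loading genes *H2-DMb1* (plus, chr17:34153091-34153142), *H2-DMb2* (plus, chr17:34145120-34145171), *H2-Oa* (plus, chr17:34092281-34092348) and *H2-Ob* (plus, chr17:34238812-34238860).
H2-Aa: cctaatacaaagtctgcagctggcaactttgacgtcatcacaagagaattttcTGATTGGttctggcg
H2-Eb1: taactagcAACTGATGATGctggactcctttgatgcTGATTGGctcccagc
H2-DMb1: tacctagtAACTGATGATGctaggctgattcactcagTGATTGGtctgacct
H2-DMb2: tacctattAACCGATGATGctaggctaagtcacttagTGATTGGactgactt
H2-Oa: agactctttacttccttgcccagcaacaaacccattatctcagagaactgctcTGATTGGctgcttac
H2-Ob: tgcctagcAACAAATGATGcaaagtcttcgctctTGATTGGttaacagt

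The spacing between X and Y letters was 17 bases in *H2-Eb1*, 18 in *H2-DMb1* and *H2-DMb2* and 15 in *H2-Ob*. The Y letters began 50 bases before the gene start in *H2-Aa*, 61 in *H2-Eb1*, 63 in *H2-DMb1*, 92 in *H2-DMb2*, 45 in *H2-Oa* and 59 in *H2-Ob*. The levels of these genes did not follow one order across the clusters described here.

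Class II-high cells were 2.62% of WT/WT cells (interval 2.26 to 3.02) and 4.71% of LI/LI cells (4.25 to 5.20). The direction depended on the denominator. Among cells below the *S100a8* and *S100a9* limit the shares were 2.66% of 6916 and 8.77% of 4195. Among cells below both that limit and the microglia limit they were 25.03% of 735 in WT/WT (21.9 to 28.3) and 16.4% of 2241 in LI/LI (14.9 to 18.0), so the order turned. The sort for low CD45 and for CD11b can set any of these shares, and was not tested. *Ptprc*, which encodes CD45, had a UMI in 85.9% of WT/WT and 83.7% of LI/LI class II-high cells, and *Itgam*, which encodes CD11b, in 41.8% and 41.3%, against 90.2% and 79.5% of cells above the microglia limit. Here and below, cells said to be above the microglia limit were below the *S100a8* and *S100a9* limit, and the reverse, so cells above both were left out of these values. Cells set beside them for their border macrophage genes were below both limits.

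Before the other limits, 331 WT/WT and 452 LI/LI cells reached 1% of class II UMIs. The border macrophage limit alone removed 86 of these in WT/WT and 25 in LI/LI, and the neutrophil limit alone removed 0 and 27. Many WT/WT cells lay next to the border limit, with 58 of 184 class II-high cells holding 2 of the 6 genes just inside it and 48 cells holding 3 just outside it. In LI/LI these were 26 of 368 and 15. Few lay next to the class II limit, since 1 WT/WT and 8 LI/LI cells fell between 1 and 1.1% and 4 and 9 cells between 0.9 and 1%. The lowest values inside were 1.096% and 1.00%, and the highest outside 0.991% and 0.988%.

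The class II content of the cells differed between the libraries. Its median was 7.05% of UMIs in WT/WT, with 10% of cells below 2.83% and 10% above 11.1%. In LI/LI the median was 3.52%, with 10% of cells below 1.40% and 10% above 8.33%. At least 5% was reached by 132 of 184 WT/WT cells and 104 of 368 LI/LI cells.

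The marker list behind the name of the population held only in part. *H2-Aa*, *H2-Ab1* and *Cd74* belong to the rule, which leaves *Flt3*, the receptor that sustains dendritic cells, and *Cd209a*, a C-type lectin of type 2 conventional dendritic cells (cDC2), as independent marks. *Flt3* (chromosome 5, 147330741 to 147400489, minus strand) had a UMI in 23 of 184 WT/WT cells, 12.5% (8.09 to 18.2), and in 72 of 368 LI/LI cells, 19.6% (15.6 to 24.0). *Cd209a* (chromosome 8, 3743397 to 3748984, minus strand) had a UMI in 17 cells, 9.24% (5.47 to 14.4), and in 124 cells, 33.7% (28.9 to 38.8). *Xcr1*, the receptor of cross-presenting type 1 dendritic cells (cDC1) (chromosome 9, 123852315 to 123862029, minus strand), had a UMI in 11 and 10 cells, 5.98% and 2.72%. *Clec9a*, their receptor for dead cells (chromosome 6, 129408862 to 129424763, plus strand), had a UMI in 15 and 33 cells, 8.15% and 8.97%. *Cd79a*, a signalling chain of the B cell receptor (chromosome 7, 24897381 to 24902197, plus strand), had a UMI in 11 and 113 cells, 5.98% (3.02 to 10.4) and 30.7% (26.0 to 35.7).

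At least 1 of these 5 genes was seen in 49 WT/WT and 266 LI/LI class II-high cells, 26.6% and 72.3%. The population is therefore called class II-high cells here, since most WT/WT members carried none of the dendritic or B cell genes asked for.

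Few cells above the microglia or neutrophil gene limits, types that should lack these genes, held them. In cells above the microglia limit, with a median of 4271 UMIs in WT/WT and 3791.5 in LI/LI, *Flt3* had a UMI in 0.259% and 0.256%, *Cd209a* in 0.356% and 0.307%, *Xcr1* in 0.0971% and 0.0512%, and *Cd79a* in 0.194% and 2.56%. *Clec9a* had a UMI in 3 of 6181 such cells in WT/WT and in 0 of 1954 in LI/LI (upper bound 0.189% for cells with a UMI). In LI/LI cells above the *S100a8* and *S100a9* limit, with a median of 4113 UMIs, *Cd79a* had a UMI in 1.96% and *Cd209a* in 0.898%. The cells with at least 3 border macrophage genes did carry *Cd209a*, at 188 CPM (159 to 221) in WT/WT and 152 CPM (104 to 216) in LI/LI, against 217 and 647 CPM in class II-high cells, so the WT/WT levels were close. They also held *Cd79a* at 6.44 CPM in WT/WT and 211 CPM (153 to 285) in LI/LI.

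Cells thinned to 1000 UMIs gave the same order for *Cd209a*, at 5.00% of WT/WT and 21.3% of LI/LI cells, and for *Cd79a*, at 6.11% and 28.4%. At that depth *Flt3*, *Xcr1* and *Clec9a* fell to between 2 and 11 cells per library, too few to read a difference. Thinning left out 4 WT/WT and 2 LI/LI cells.

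The dendritic genes overlapped with each other and hardly with *Cd79a*. *Flt3* was seen in 6 of 17 WT/WT and 44 of 124 LI/LI cells with *Cd209a*, and in 10 of 11 and 8 of 10 cells with *Xcr1*. All 11 WT/WT cells with *Xcr1* also held *Clec9a*, as did 9 of 10 in LI/LI, and none of the 11 held *Cd209a*. *Cd209a* and *Clec9a* met in 0 WT/WT and 16 LI/LI cells. *Cd79a* came with *Cd79b*, its partner chain, in 11 of 11 and 109 of 113 cells and with *Ms4a1*, the B cell surface protein CD20, in 11 and 106, but with *Flt3* in 1 and 2 cells. Of the cells with *Cd209a*, 1 of 17 in WT/WT and 61 of 124 in LI/LI also held *Ly6c2*, a gene of classical monocytes. *Ly6c2* differed between the libraries in other cells too, at 1.43 CPM in WT/WT and 30.5 CPM in LI/LI above the microglia limit, and stood at 602 and 693 CPM in cells above the *S100a8* and *S100a9* limit. Its part in this overlap was not tested.

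Marker classes rest on more genes. A cell was put in a class when it held UMIs of at least 2 of its markers, and could meet several. The B cell class held 18 WT/WT cells, 9.78% (5.90 to 15.0), and 141 LI/LI cells, 38.3% (33.3 to 43.5). Without *Ighm*, the IgM heavy chain gene that also had a UMI in 53.1% and 49.3% of cells above the microglia limit, it held 11 and 115. The cDC1 class held 27 and 50 cells, 14.7% and 13.6%, with overlapping intervals. The cDC2 class held 32 and 104 cells, 17.4% (12.2 to 23.7) and 28.3% (23.7 to 33.2), but 1 marker in place of 2 turned the order, at 48.4% and 44.6%. Of the clusters described below, the C1q-rich one held 20 of the 32 WT/WT members and 5 of the 104 in LI/LI, and the cDC2-like one 3 and 71, so the class took in different cells in each library. The class built from genes of migratory dendritic cells, such as *Ccr7* and *Fscn1*, was met by 3 and 12 cells, but 1 and 9 of these lay in the B cell-like cluster described below. The plasmacytoid dendritic cell class was met by 0 of 184 (upper bound 1.98%) and 5 of 368. The limit on microglia genes, *Siglech* among them, can remove such cells from the population, and its part was not tested.

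The monocyte class held 49 WT/WT cells, 26.6% (20.4 to 33.6), and 197 LI/LI cells, 53.5% (48.3 to 58.7). It too took in different cells. The C1q-rich cluster held 42 of the 49 WT/WT members and 21 of the 197 in LI/LI, where most were in the monocyte-like (75) and cDC2-like (62) clusters. Leaving out *Fcgr1*, a high-affinity IgG receptor that macrophages also use, reduced it to 15 and 174. The T cell class was met by 2 and 6 cells and the NK cell class by 1 and 2, none of which met that class alone. These classes depend on depth. Thinned to 1000 UMIs, the B cell class was 6.11% and 30.6%, the cDC1 class 5.56% and 1.91%, the cDC2 class 5.56% and 11.2% and the monocyte class 6.11% and 18.9%. None of the 8 classes was met by 86 WT/WT cells, 46.7% (39.4 to 54.2), and by 38 LI/LI cells, 10.3% (7.41 to 13.9). Several classes were met by 28 and 152 cells, whose medians of 8291 and 7178.5 UMIs lay above those of cells with none, 3170.5 and 3446.5.

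Clustering of the class II-high cells alone, without the genes of the rule, gave 6 clusters. All values by cluster are descriptions, since the clusters were made from the same counts. The first, with 192 cells, was led by *Lilra5*, *Ccl12*, *Tmem37*, *Apoe* and *C3ar1*, and *C1qa*, a chain of the complement starter C1q, had a UMI in 99.5% of its cells. None of the cell type marker lists had a gene among its 10 leading genes, so it was given no cell type name and is called C1q-rich. It held 146 of the 184 WT/WT cells, 79.3% (72.8 to 85.0), and 46 of the 368 LI/LI cells, 12.5% (9.30 to 16.3).

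A B cell-like cluster (116 cells, 12 WT/WT and 104 LI/LI) had *Gimap7*, *Iglc1*, *Iglc2* and *Gimap6* among its leading genes, with 10 of 10 B cell markers above the rest. *Cd79a* stood at 3425 CPM in it and *Ms4a1* at 1038 CPM. *C1qa* was seen in 7 of its 12 WT/WT and 71 of its 104 LI/LI cells, or 2188 and 2982 CPM. By comparison *C1qa* had a UMI in 29.8% of LI/LI cells above the *S100a8* and *S100a9* limit. None of these 116 cells was among the 5% with the highest Scrublet doublet score of its library, and no further test of joined cells was made.

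A cDC2-like cluster (87 cells, 3 and 84) was led by *Cd7*, *Cd209d*, *Kcne3*, *L1cam* and *Cd209a*. *Cd209a* was found in 94.3% of its cells at 1711 CPM, *Clec10a*, another C-type lectin, in 80.5%, and *Flt3* in 41.4%. Only 4 of 8 cDC2 markers were above the rest in it (*Cd209a*, *Clec10a*, *Tnip3* and *Cd209d*), and *Mgl2* was above the rest in the C1q-rich cluster. Of the 84 LI/LI cells in the cDC2-like cluster, 62 also met the monocyte class. A monocyte-like cluster (79 cells, 2 and 77) was led by *Gm1673*, *Gm5150*, *Ms4a8a*, *Mgst1* and *Gm9733*, had 8 of 8 monocyte markers above the rest, and held *Ccr2*, the chemokine receptor for entry from blood, in 96.2% of its cells. A nonclassical monocyte-like cluster (14 cells, 1 and 13) was led by *S1pr5*, *Gm26632*, *Cd300e*, *Fabp4* and *Ace*, with 6 of 6 markers above. The cDC2-like and both monocyte-like clusters came almost wholly from the LI/LI library, so type and library cannot be told apart in them.

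The last cluster held 20 WT/WT and 44 LI/LI cells and was led by the mitotic genes *Ccnb2*, *Nusap1*, *Ccna2*, *Birc5* and *Hist1h1b*, with 7 of 8 cDC1 markers above the rest. *Xcr1* ranked 10. Since cell-cycle genes led it, it was not named as a cell type. *Xcr1* or *Clec9a* was seen in 9 WT/WT and 20 LI/LI cells. At least 6 of 12 cell-cycle genes were seen in 6 and 16, and both in 2 and 8. *Cd209a* was present in 8 and 9 cells. The cells of this cluster were the deepest, with medians of 12744 and 10721.5 UMIs, and the part of depth in the number of genes seen per cell was not tested. *Irf8*, the transcription factor that specifies cDC1, stood at 764 CPM in its WT/WT and 1049 CPM in its LI/LI cells, and *Batf3*, its partner, at 98.6 and 260 CPM.

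**Figure D1:**
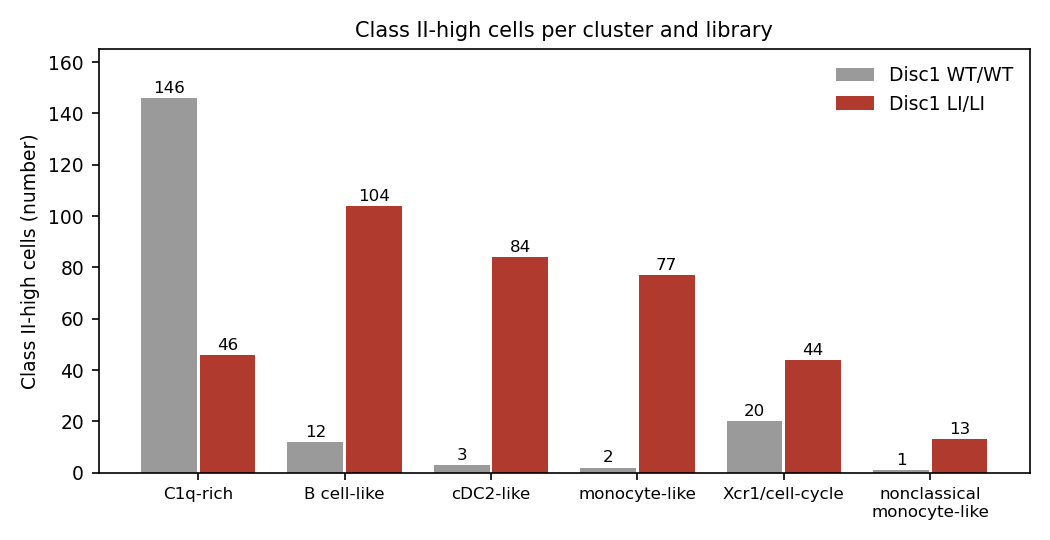
Number of class II-high cells (y axis) in each of the 6 clusters (x axis), with 1 bar per library. WT/WT cells were mostly C1q-rich (146 of 184), and LI/LI cells were spread over the B cell-like (104), cDC2-like (84), monocyte-like (77), C1q-rich (46) and *Xcr1*/cell-cycle (44) clusters.

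**Figure D2:**
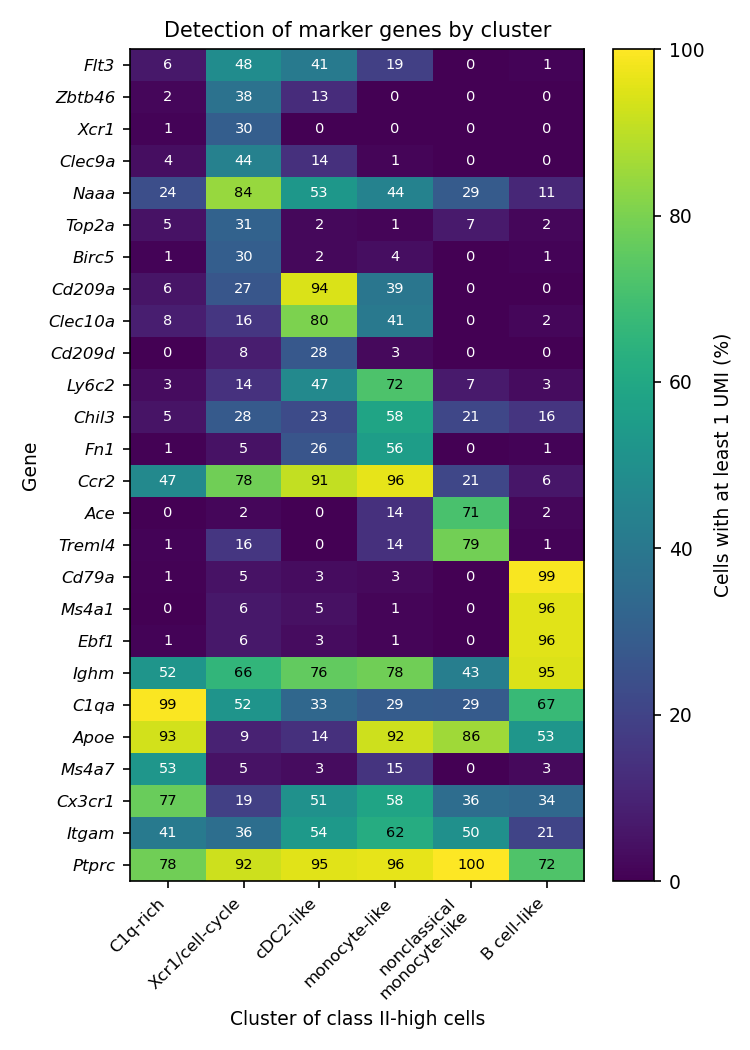
Share of cells with at least 1 UMI (colour and number, in %) of each gene (rows) in each cluster (columns), both libraries together. *Cd79a* was found in 99.1% of B cell-like cells and *Cd209a* was found in 94.3% of cDC2-like cells, while *Ighm* and *C1qa* had UMIs in every cluster.

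Class II content was highest in the C1q-rich cells of both libraries, as the plot of class II against C1q content by cell shows. Their median class II content was 7.67% of UMIs in WT/WT and 8.25% in LI/LI. It was 2.68% and 2.87% in B cell-like cells, 4.02% in the 84 LI/LI cDC2-like cells, 3.02% in the 77 monocyte-like cells, and 5.88% and 3.33% in the *Xcr1* and cell-cycle cluster. The lower median of the LI/LI library did not appear among C1q-rich cells.

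**Figure D3:**
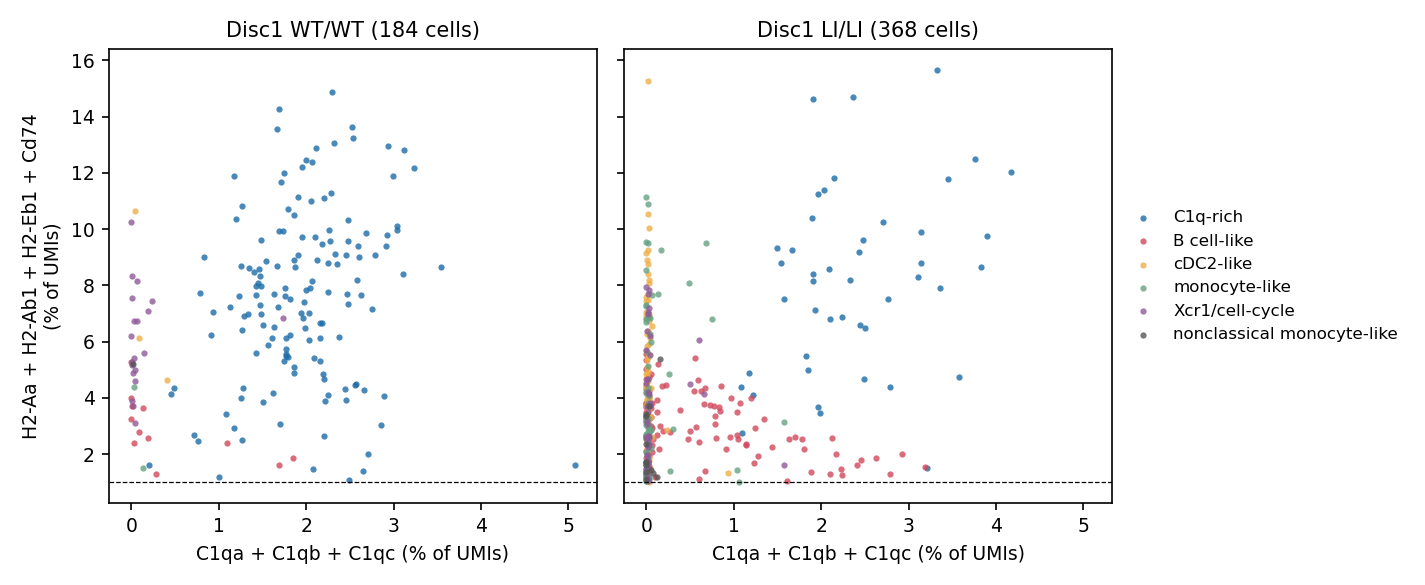
Share of a cell's UMIs from the 4 class II genes of the rule (y axis, %) against the share from *C1qa*, *C1qb* and *C1qc* (x axis, %), 1 point per cell, coloured by cluster, with 1 panel per library and the 1% limit dashed. The C1q-rich cells form the upper right group in both panels, and the LI/LI panel adds a column of cells with little C1q and a group of B cell-like cells that reach from the left edge into the C1q range of the C1q-rich cells.

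RNA of other cell types was present in the class II-high cells and differed between the libraries. At least 2 of 10 neutrophil markers had UMIs in 7 of 184 WT/WT cells and in 346 of 368 LI/LI cells. The 10 genes summed to 39.0 and 1168 CPM, with 9 of 10 and 10 of 10 detected and *S100a9* the most abundant at 15.0 and 365 CPM. This was so in every cluster, with *S100a9* at 584 CPM in C1q-rich, 530 in B cell-like and 301 in cDC2-like LI/LI cells. Cells above the *S100a8* and *S100a9* limit and below the microglia limit numbered 3565 in LI/LI and 105 in WT/WT. The part of free or joined neutrophil RNA in the values below was not tested. Microglia markers summed to 4372 CPM in WT/WT and to 1821 CPM in LI/LI, with 10 of 10 detected in both.

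Border macrophage markers summed to 1021 and 362 CPM, with *Ms4a7* (611 CPM) and *F13a1* (187 CPM) the most abundant. *Mrc1* and *Pf4* stood at 178 and 155 CPM in WT/WT and at 40.7 and 17.8 CPM in LI/LI. *Cbr2* and *Lyve1* were at 0 in WT/WT and *Folr2* at 0 in LI/LI. The rule itself limits *Mrc1*, *Pf4*, *Ms4a7*, *Cbr2* and *Folr2*, so these levels are given as a description. Erythroid markers came to 1.00 CPM (1 of 6 detected) and 30.3 CPM (4 of 6, with *Hbb-bs* the most abundant at 14.7 CPM). Neuronal markers were at 0 in both libraries. Astrocyte, endothelial and oligodendrocyte lists stayed at or below 62.0 CPM, and mast cell and basophil markers at or below 2.60 CPM. Innate lymphoid markers summed to 59.0 and 25.6 CPM, with 4 of 5 detected in both. T cell markers summed to 22.0 and 32.5 CPM, NK cell markers to 99.1 and 35.9 CPM, and nonclassical monocyte markers to 84.1 and 143 CPM.

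Class II-high cells were also compared with all other cells of their library, leaving the genes of the rule aside. Of 12960 genes with at least 10 UMIs in each library, 579 (4.47%) were at least 2-fold higher in both libraries and 1590 (12.3%) at least 2-fold lower. *Xcr1* came first, with log2 ratios of 8.10 (6.97 to 9.48) in WT/WT and 7.62 (6.15 to 9.56) in LI/LI. *Ciita*, the class II coactivator (chromosome 16, 10480059 to 10528418, plus strand), had rank 5 at 6.01 and 5.45. It had UMIs in 52 of 184 and 107 of 368 class II-high cells, or 75.1 and 62.8 CPM, against 1.17 and 1.43 CPM in all other cells. The rest of the first 15 were the dendritic cell genes *Snx22*, *Tnip3*, *Cd209a* and *Clec9a*, the B cell genes *Fcmr*, *Ms4a1*, *Iglc3* and *Cd79a*, and *Retnla*, *Hepacam2*, *Slamf7*, *Ifi205* and *Kctd14*. *Retnla* rested on 1 WT/WT cell and 2 LI/LI cells.

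*Ciita* was also present in the cells most like them. It stood at 30.9 CPM (19.8 to 46.0) in WT/WT and 34.4 CPM (13.8 to 70.9, from 7 UMIs) in LI/LI cells with at least 3 border macrophage genes, against 75.1 (59.0 to 94.1) and 62.8 (53.0 to 73.9) in class II-high cells, so the LI/LI intervals overlapped. It stood at 1.99 and 2.03 CPM in other cells with *Ly6c2* and *Ccr2* that were within the limits on microglia, neutrophil and border genes, and at 0.340 and 0.488 CPM in cells above the microglia limit. *H2-DMb1*, the H2-DM β chain, stood at 1066 and 939 CPM in class II-high cells, at 602 and 722 CPM in border macrophage-gene cells, at 93.4 and 95.9 CPM in *Ly6c2* and *Ccr2* cells, and at 169 and 197 CPM above the microglia limit. The protease gene *Ctss* was higher above the microglia limit, at 8033 and 8002 CPM, than in class II-high cells, at 4519 and 2496 CPM.

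The counts by list that follow are to be read against 4.47% of all genes higher and 12.3% lower in both libraries. Of 14 class II loading and control genes, 8 were at least 2-fold higher than in other cells in both libraries. These were *Ciita*, *Ifi30*, *H2-Eb2* and the H2-DM and H2-O genes, and 1, the protease *Lgmn*, was lower. The rule chose cells by class II genes, which CIITA switches on. The levels of *Ciita* and of the H2-DM and H2-O genes are therefore not independent of the rule, here and above. Of 13 class I presentation genes, 5 were higher, among them the peptide transporter gene *Tap1* at log2 ratios of 1.54 and 1.31. Among 12 dendritic cell transcription factors, 5 were higher (*Zbtb46*, *Irf4*, *Id2*, *Klf4* and *Bcl11a*), with *Zbtb46*, which marks conventional dendritic cells, at 3.47 and 4.34. Of 9 chemokine receptors 5 were higher and 1, *Cx3cr1*, lower. Higher were also 5 of 15 chemokines and cytokines, 3 of 7 co-stimulatory genes (*Cd40*, *Cd83* and *Tnfsf9*), 6 of 13 interferon response genes, 5 of 14 pattern recognition receptors and 2 of 10 cytokine receptors. Of the cytokine receptors, 1 was lower. The median log2 ratio over all genes tested was -0.40 in WT/WT and 0.04 in LI/LI. None of 9 ARP2/3 or 10 WAVE and Rac genes was past 2-fold in the same direction in both libraries. Cell-cycle genes went opposite ways against these other cells. In WT/WT 9 of 12 were at least 2-fold higher (median 1.40), against 11.3% of all genes. In LI/LI 5 of 12 were lower (median -0.89), against 19.2%. The other cells differed, with 6181 above the microglia limit in WT/WT and 1954 in LI/LI. Above the *S100a8* and *S100a9* limit they numbered 105 and 3565, and the part of this in the ratios was not tested. Between the class II-high cells themselves, LI/LI over WT/WT, the cell-cycle list had a median of 0.39. Against other cells in both libraries, 1 of 12 immediate early genes was higher, and none of 7 complement genes or of 10 formins and partners. Of these last 2 lists, 2 genes each were lower. All 4 hemoglobin genes were lower.

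Among clusters, summed over both libraries, the loading genes had different orders. *Ciita* stood at 61.0 CPM in C1q-rich, 60.2 in B cell-like, 73.9 in cDC2-like, 63.4 in monocyte-like and 74.6 CPM in *Xcr1* and cell-cycle cells. *H2-Aa* ranged from 3603 CPM in B cell-like to 12190 CPM in C1q-rich cells. *H2-Ob*, one chain of the inhibitor H2-O, was highest where *H2-Aa* was lowest, at 380 CPM in B cell-like, 92.0 in *Xcr1* and cell-cycle, 39.1 in C1q-rich, 37.7 in cDC2-like and 13.4 CPM in monocyte-like cells. *H2-Oa* had the same order at its ends, 202 CPM in B cell-like and 11.5 CPM in monocyte-like cells. The cDC2-like and monocyte-like levels rest almost wholly on LI/LI cells. In WT/WT and LI/LI separately, *H2-Aa* stood at 11624 and 13925 CPM in C1q-rich and 3882 and 3569 CPM in B cell-like cells, and *H2-Ob* at 36.6 and 46.7 against 343 and 384 CPM, so both libraries had the same order. *Ciita* stood at 67.1 and 42.0 CPM in C1q-rich, 42.9 and 62.3 in B cell-like and 119 and 53.3 CPM in *Xcr1* and cell-cycle cells, so its order differed between the libraries.

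The H2-DM β genes split. *H2-DMb2* stood at 450 CPM in B cell-like cells and 27.6 CPM in C1q-rich cells, while *H2-DMb1* stood at 120 and 1175 CPM, and each library alone had the same orders. These genes are neighbouring paralogs, and the part of shared sequence in this split was not tested. *Ifi30*, the lysosomal thiol reductase that opens disulfide bonds before loading, was highest in cDC2-like cells at 2166 CPM and stood at 529 CPM in C1q-rich cells. *Ctss*, the main invariant chain protease of these cells, was highest in C1q-rich cells at 6170 CPM and lowest in *Xcr1* and cell-cycle cells at 876 CPM.

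**Figure D4:**
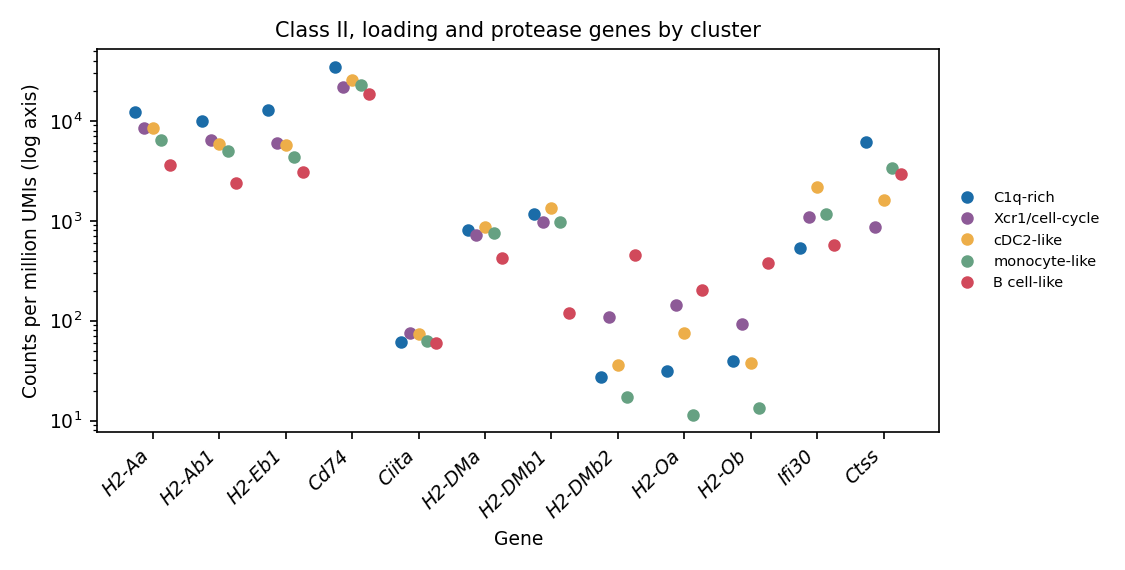
CPM (y axis, log scale) of class II chain, invariant chain, regulator, loading and protease genes (x axis) in the 5 clusters with at least 64 cells, both libraries summed, with 1 point per cluster. *Ciita* lies between 60.2 and 74.6 CPM in all 5, while *H2-DMb2*, *H2-Oa* and *H2-Ob* are highest in B cell-like cells and *H2-DMb1* is lowest there.

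Between genotypes, 9877 genes had at least 10 UMIs over the class II-high cells of both libraries. In LI/LI, 707 (7.16%) were at least 2-fold higher and 1589 (16.1%) at least 2-fold lower in CPM, and the median log2 ratio was -0.19. The counting interval lay off 0 for 437 of the higher and 1221 of the lower genes, and wholly past 2-fold for 135 and 289. Scaling by TMM raised every log2 ratio by 0.19 and gave 935 higher and 1234 lower, a share of higher calls of 43.1% against 30.8%. The RLE factors raised them by 0.21 and gave 948 and 1231. The ratios also fell with gene length (Spearman's rho -0.41 over 5877 genes, which are not independent and share 2 libraries).

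The genes most above in LI/LI, ordered by the interval's bound nearest to no change, were mainly neutrophil and granule genes. *S100a8* had 5 and 670 UMIs, *Lcn2*, an iron-binding protein of neutrophil granules, 1 and 214, *S100a9* 15 and 842, *Retnlg* 4 and 335, *Camp* 4 and 269, and *Ifitm6* 13 and 701. *Elane*, neutrophil elastase, and the protease inhibitor gene *Slpi* had 0 UMIs in WT/WT and 162 and 102 in LI/LI, at least 4.55 and 3.88 higher on the log2 scale when the WT/WT library is set at 3 counts. *Ctsk* had 261 UMIs, all in 1 LI/LI cell, and *Klk1*, a plasmacytoid dendritic cell marker, 101 UMIs in 5 cells.

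Of the genes most below, *Cxcl9*, a chemokine induced by interferon gamma, led at a log2 ratio of -4.57 (-5.10 to -4.08), from 381 UMIs in 9 WT/WT cells, 210 of them in 1 cell, against 37 in 7 LI/LI cells. *Dab2*, an endocytic adaptor, stood at 225 and 21.2 CPM. *Pf4* (155 and 17.8 CPM) and *Ms4a7* (611 and 88.4 CPM) were limited by the rule itself. *Mmp12*, *Spire1*, *Cd36*, *Vcam1*, *Creb5* and *Col14a1* made up the 10, with log2 ratios from -3.79 to -3.02.

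The mixture of clusters moved with these ratios. In the C1q-rich cluster alone (146 and 46 cells, a comparison added after the clusters were seen), 6940 genes had 10 UMIs, of which 259 (3.73%) were at least 2-fold higher and 1393 (20.1%) at least 2-fold lower in LI/LI, with a median log2 ratio of -0.26. The interval lay off 0 for 84 and 405 of them. Here *Ms4a7* stood at -0.14 (-0.39 to 0.10), *Pf4* at -0.42 (-0.98 to 0.10) and *Col14a1* at -0.27 (-1.16 to 0.55), each interval crossing 0. *Cxcl9* stood at -2.70 (-3.45 to -2.04), and 379 of its 381 WT/WT UMIs lay in this cluster. Its ratio of 0.56 in the class II-high cells outside the cluster rests on the few that remained, so no direction is read from it. *S100a8* stood at 6.56 (5.16 to 8.46) and *S100a9* at 5.00 (4.14 to 5.99).

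The sign of the class II genes turned between the mixed population and the C1q-rich cluster. *H2-Aa* (chromosome 17, 34282744 to 34287823, minus strand) stood at 11011 CPM in WT/WT and 7326 CPM in LI/LI over all class II-high cells, a log2 ratio of -0.59 (-0.62 to -0.55). Within the C1q-rich cluster it stood at 11624 and 13925 CPM, 0.26 (0.20 to 0.32). *H2-Ab1* (chromosome 17, 34257689 to 34269419, plus strand) went from -0.74 to 0.19, *Cd74* from -0.45 to 0.17 and *H2-Eb1* (chromosome 17, 34305867 to 34316674, plus strand) from -1.11 to 0.04 (-0.02 to 0.10). These genes chose the cells, so their ratios are given with no further reading.

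The genes of the C1q chains turned in the same way. *C1qa* stood at 4815 and 1520 CPM in all class II-high cells, a log2 ratio of -1.66 (-1.73 to -1.60), and at 7032 and 9123 CPM in the C1q-rich cluster, 0.38 (0.30 to 0.45). *C1qb* went from -1.60 to 0.33 and *C1qc* from -1.69 to 0.22. Of 7 complement genes tested in all class II-high cells, 6 were at least 2-fold lower and 1, *C3*, higher at 1.04 with an interval that crossed 0 (-0.08 to 2.35), and the median was -1.69. Of 6 tested in the C1q-rich cluster 1, *C5ar2*, was at least 2-fold lower, with an interval that crossed 0, and none higher, against 20.1% and 3.73% of all genes there, and the median was 0.25.

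**Figure D5:**
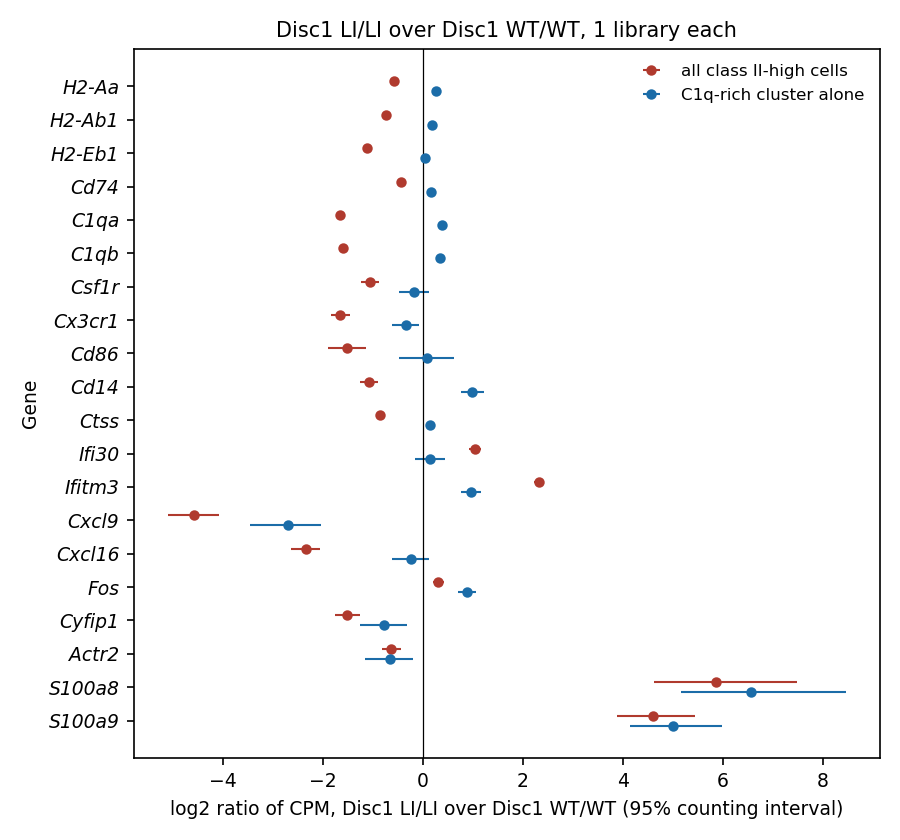
Log2 ratio of CPM, LI/LI over WT/WT (x axis), for 20 genes (y axis), in all class II-high cells and in the C1q-rich cluster alone, with bars for 95% counting intervals and 1 library per genotype. Class II and C1q genes lie left of 0 in all class II-high cells and at or right of 0 in the C1q-rich cluster, whereas *Cxcl9*, *Cyfip1* and *Actr2* lie left and *S100a8*, *S100a9* and *Ifitm3* right of 0 in both.

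For antigen loading, 1 of 14 genes was at least 2-fold higher in LI/LI (*Ifi30*, 638 and 1311 CPM, log2 ratio 1.04) and none 2-fold lower, against 7.16% and 16.1% of all genes. *Ctss* stood at -0.86 (-0.91 to -0.80) in all class II-high cells and 0.14 (0.06 to 0.23) in the C1q-rich cluster, where *Ifi30* also stood at 0.14 (-0.17 to 0.45). *March1*, a ubiquitin ligase that removes class II from the surface, stood at -0.65 in all and -1.04 (-1.68 to -0.45) in the C1q-rich cluster, the 1 of 11 loading genes past 2-fold there. Class I genes moved little, with 1 of 13 past 2-fold in all class II-high cells (*Erap1*, a trimming peptidase, lower) and 0 of 12 in the C1q-rich cluster.

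The counts by list in what follows stand beside 7.16% of all genes 2-fold higher and 16.1% lower in all class II-high cells, and 3.73% and 20.1% in the C1q-rich cluster, and in short lists 1 or 2 genes are near these shares. Co-stimulatory genes showed 2 of 7 at least 2-fold higher and 3 lower over all class II-high cells. *Tnfsf9*, the ligand of 4-1BB, stood at 41.0 and 133 CPM (1.69, 1.22 to 2.20), and *Cd86*, the ligand of CD28, at 134 and 46.8 CPM (-1.52, -1.90 to -1.14). In the C1q-rich cluster *Cd86* stood at 0.08 (-0.48 to 0.62). Of 15 chemokines and cytokines, 7 were 2-fold lower (*Ccl17*, *Cxcl2*, *Cxcl9*, *Cxcl10*, *Cxcl16*, *Il1b* and *Tnf*) and 1, *Il6*, higher (1 and 15 UMIs, with an interval that crossed 0) over all class II-high cells, and 3 and 1 of 12 in the C1q-rich cluster. *Ccl4*, a chemokine of activated myeloid cells, was lower there at 712 and 313 CPM (-1.19, -1.58 to -0.81), and *Il1b* stood at -0.22 (-0.46 to 0.01). Chemokine receptors had 3 of 9 lower and 1 higher over all class II-high cells. The higher one was *Ccr7*, at 3 and 128 UMIs. This gene was above the rest in the B cell-like cluster, which held 12 WT/WT and 104 LI/LI cells. *Ccr2* stood at 0.14 (-0.02 to 0.29) over all class II-high cells and at -1.08 (-1.55 to -0.63) in the C1q-rich cluster.

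Pattern recognition receptors had 3 of 15 higher, *Cd209a*, *Clec10a* and *Clec4a1*, and 4 lower, *Tlr3*, *Tlr4*, *Tlr9* and *Cd14*, over all class II-high cells. *Cd14*, the lipopolysaccharide co-receptor, stood at -1.08 (-1.27 to -0.90) over all class II-high cells and at 0.99 (0.76 to 1.22) in the C1q-rich cluster, 595 and 1182 CPM. Of 12 dendritic cell transcription factors 1 was higher (*Bcl11a*) and 1 lower (*Irf4*), and in the C1q-rich cluster 0 and 2 of 9. Growth factor receptors had 3 of 10 lower, *Tgfbr1* and *Tgfbr2* of the TGF-beta pathway and *Csf1r*, on which macrophages depend. None of 8 was past 2-fold in the C1q-rich cluster and *Csf1r* stood at -0.17 (-0.47 to 0.12).

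Interferon response genes had 3 of 13 higher and 1 lower over all class II-high cells. *Ifitm3*, an antiviral membrane protein, was the largest at 819 and 4071 CPM (2.31, 2.21 to 2.42). It stood at 0.97 (0.77 to 1.17) in the C1q-rich cluster, where none of 11 was past 2-fold. Immediate early genes, which Act-Seq is meant to hold down, had 1 of 12 higher and 2 lower. In the C1q-rich cluster 0 and 1 of 12 were past 2-fold and the median was 0.46. *Fos* stood there at 0.88 (0.70 to 1.06) and *Zfp36* at 0.92 (0.66 to 1.17). Cell-cycle genes had 1 of 12 higher and 1 lower over all class II-high cells, and 3 of 3 hemoglobin genes tested were higher, on 1 UMI in WT/WT and with an interval that crossed 0 for *Hba-a2*.

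The actin regulators that the study examined in microglia were read in the same cells. Of 9 ARP2/3 subunits, none was past 2-fold in either set of cells. *Actr2* stood at 369 and 238 CPM (-0.64, -0.83 to -0.44) over all class II-high cells and at -0.67 (-1.16 to -0.20) in the C1q-rich cluster. The list's median was 0.25 over all class II-high cells and -0.27 in the C1q-rich cluster, near the cluster's median over all genes of -0.26. WAVE and Rac genes had 1 of 9 higher, *Rac2*, a Rac of blood cells, and 1 lower, *Cyfip1*, at 291 and 102 CPM (-1.51). *Cyfip1* in the C1q-rich cluster stood at -0.77 (-1.26 to -0.31) and none of 8 was past 2-fold. Formins and partners had 5 of 8 lower over all class II-high cells, with a median of -1.36, against 16.1% of all genes. In the C1q-rich cluster 2 of 7 were lower, with a median of -0.39, near the 20.1% of all genes. Formin genes are long, and the ratios in the C1q-rich cluster fell with gene length (Spearman's rho -0.44 over 2271 genes), the part of which was not tested.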

How the data were processed

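UMI counts per gene and barcode were deposited by the authors for 32285 genes, as raw values, with Cell Ranger 6.1.2 and mm10. The submitters' processing notes also name STAR and Seurat 3.0.1. Which chip and kit version each library had is not given in the sources used here. Kept cells had 200 genes or more and no more than 10% of UMIs from mitochondrial genes. Members and gene lists were chosen with earlier results of these data known. CPM came from raw UMIs summed over the cells of a set, per library, over the total of that set. Log2 ratios have intervals from the binomial split of UMIs, shares Clopper-Pearson and sums Poisson intervals, all 95%. No test was made, since each genotype has 1 library.

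Class II-high cells were clustered with scanpy 1.11.5 (Leiden, igraph 0.11.9, resolution 0.5, 2000 variable genes, 20 principal components, 15 neighbours, genes of the rule left out). A cluster was named when at least 3 markers of a type were seen in at least 10% of its cells and were over 2-fold above the rest, at least 1 stood among its 10 leading genes, and no other type or the cell cycle had as many there. This naming was set after the clusters were seen. Leading genes were seen in at least 25% of a cluster's cells. The text names the first 5 of each cluster, the 15 genes with the highest lower ratio of both libraries over other cells (at least 20 UMIs in each), and the 10 highest and 10 lowest between genotypes (at least 50 UMIs over both). Doublets were not removed. Scrublet's highest 5% per library were left out as an alternative. Intervals were checked on simulated data for the comparison between genotypes. TMM and RLE factors were from edgeR 4.0.16 in R 4.3.3, and statistics from scipy 1.17.1 and pandas 2.3.3 in Python 3.11.15. Coordinates came from GENCODE on mm10 and promoter windows from RefSeq. The sequence of *Cd74* and the values of a few listed genes are not reported here.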

Additional observations from a re-analysis of the deposited data

How the results depend on the processing

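No paired analysis was possible because each genotype has 1 library, and no replicate could be left out. The share of class II-high cells moved beyond its interval in WT/WT with a microglia limit of 1% (3.09%), with fewer than 2 border genes (1.79%) and with no border limit (3.84%), and in LI/LI with a class II limit of 0.5% (5.55%) or 2% (3.67%). It stayed higher in LI/LI under each of these settings. Thinning to 1000 UMIs gave, in WT/WT and LI/LI, 1.11% and 3.01% for *Flt3*, 5.00% and 21.3% for *Cd209a*, 1.67% and 0.820% for *Xcr1* and 1.11% and 0.820% for *Clec9a*. Genes 2-fold higher and lower in LI/LI numbered 2336 and 3221 with no UMI minimum, 691 and 943 after thinning, 259 and 1393 in the C1q-rich cluster, and 1085 and 1253 without it. The settings by cluster, by resolution and without *Ighm* or *Fcgr1* were chosen after seeing the data. In the C1q-rich cluster alone the sign turned for *C1qa* (0.38), *Cd74* (0.17), *H2-Aa* (0.26), *H2-Ab1* (0.19) and *H2-DMb1* (0.15), and without that cluster for *C1qa* (0.35) and *Cxcl9* (0.56). The *Cxcl9* value rests on very few WT/WT UMIs, since 379 of 381 lay in the cluster, so no direction is read from it. *H2-DMb1*, at -0.18, also turned with TMM (0.0045), RLE (0.022) and without the B cell class (0.073), and the cause was not tested. Of the shares by marker class, 38 moved beyond their interval under a setting and 14 did not. At resolution 0.3 there were 4 clusters and at resolution 1 there were 12, with the C1q-rich cells whole at 0.3 and 39.1% of them together at 1. Depth limits the rare genes: 3 counts, the floor used for 0, are 1.30 CPM in LI/LI class II-high cells and 3.00 CPM in WT/WT. The exact upper limit for 0 UMIs in LI/LI class II-high cells was 1.60 CPM.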

Other observations

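A few transcripts in the class II-high cells came from single cells or very few. *Retnla*, which encodes a secreted protein of alternatively activated macrophages, had 228 UMIs in 1 WT/WT cell and 83 in 2 LI/LI cells, 78 of them in 1 cell. *Ctsk*, a protease best known from osteoclasts, had 261 UMIs in 1 LI/LI cell and none elsewhere among these cells. *Klk1* had 101 UMIs in 5 LI/LI cells, and 41 of these UMIs were in 1 cell. Whether these were the 5 cells of the plasmacytoid dendritic cell class was not tested. *Elane* had 162 UMIs in 90 LI/LI cells, of which 58 were in 1 cell. *Mmp12*, the macrophage elastase, had 83 UMIs in 17 WT/WT cells and 16 in 3 LI/LI cells, 13 of them in 1 cell. For such genes the counting interval of a library's CPM leaves out the spread between cells.

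*Itgax*, the integrin chain CD11c used to gate dendritic cells, had a UMI in 38 of 184 WT/WT class II-high cells, 20.7%, and in 26 of 368 LI/LI cells, 7.07%, although *Cd209a* ran the other way. In cells above the microglia limit it had a UMI in 1.84% and 1.28%.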
